A study of Equus caballus with 28 samples.

Results

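The immune-cell miRNAs described here were the 7 entries of the deposited horse miRNAs that carry the names miR-146a, miR-146b, miR-155, miR-142 or miR-223. The rule used only names, which were picked with earlier results of these data known, and its members make up 7 of 690 known miRNAs and 7 of 844 known and predicted miRNAs. The entries were eca-miR-155, eca-miR-146a, eca-miR-146b-5p, eca-miR-146b-3p, eca-miR-142-5p, eca-miR-142-3p and eca-miR-223, where eca stands for Equus caballus and 5p and 3p name the arm of the hairpin.

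A miRNA is a short RNA that pairs with messenger RNAs and lowers their translation or stability. miR-146a is transcribed after NF-kB activation. Both miR-146a and miR-146b lower IRAK1 and TRAF6, adaptor proteins of Toll-like receptor signalling, so that they act as a brake on innate responses. miR-155 is cut from the non-coding BIC transcript of activated lymphocytes and macrophages, miR-142 is made in nearly all blood cell lineages from a hairpin with both arms in use, and miR-223 is a miRNA of the myeloid lineage that is abundant in neutrophils. In a uterus these miRNAs are therefore known as signs of resident or incoming leukocytes, although epithelium and stroma can also make miR-146 and miR-155. All 5 hairpins were found by name in the RefSeq annotation of the horse assembly TB-T2T, in which MIR223 overlaps a long non-coding RNA and MIR146B overlaps the protein-coding gene C1H10orf95.

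The samples were taken 13 days after ovulation, around the time at which the mare recognises pregnancy. They were 5 pregnant and 4 cyclic endometrial biopsies, uterine fluid (UF) of 5 pregnant and 4 cyclic cycles, 5 embryos without their capsule and the yolk sac (YS) fluid of the same 5 embryos. The Warmblood mares went through a pregnant and a cyclic cycle in a switch-back design, ovulation was induced with hCG in both kinds of cycle, and only the pregnant cycles were inseminated, with semen of 1 stallion. The replicate number of a sample was taken as its mare, and no cyclic library of mare 5 was analysed here. UF was collected on a tampon left in the uterus. The study then describes a uterine flush to recover the embryo of pregnant cycles, with the biopsy taken last. Insemination therefore cannot be told apart from pregnancy, nor can this flush in the biopsies. The RNA of both fluids was extracted with a serum and plasma kit and that of both tissues with a tissue kit, so fluid and kit cannot be told apart in any comparison of a fluid with a tissue.

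Between 4352 and 590593 reads were counted per library, and the YS fluids (4352 to 14531) and embryos (28204 to 44768) were the shallowest. Levels are given as CPM, reads per 1000000 reads counted on miRNAs, and 1 read was worth 1.69 to 3.57 CPM in pregnant endometrium, 22.3 to 35.5 CPM in embryos and 68.8 to 229.8 CPM in YS fluid. The pluripotent miRNAs (miR-302, miR-367, miR-371 and miR-372) reached 12020 to 65295 CPM in summed level in the embryos and 34891 to 264130 CPM in YS fluid, against at most 32.2 CPM in any endometrium or UF library. The miR-200 family and miR-141, which mark epithelium, were high in all groups, between 48634 and 131785 CPM.

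eca-miR-155 led the 7 miRNAs. It gave 8053 of their reads and was read in 28 of 28 libraries, as was eca-miR-146b-5p with 2865 reads. The remaining entries gave 1948 reads for eca-miR-146a, 1090 for eca-miR-142-5p, 1057 for eca-miR-223, 93 for eca-miR-142-3p and 15 for eca-miR-146b-3p. Of all reads of the 7 miRNAs, eca-miR-155 took 55.2% in pregnant endometrium, 45.6% in cyclic endometrium, 66.5% in pregnant UF and 45.1% in cyclic UF. In rank of mean level it was at place 37 of 440 detected miRNAs in pregnant endometrium and at place 178 of 363 in the embryo.

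The summed level of the 7 miRNAs was 4629 ± 713 CPM (SD, n = 5) in pregnant endometrium, 3322 ± 1023 (SD, n = 4) in cyclic endometrium, 3058 ± 541 (SD, n = 5) for pregnant UF and 2466 ± 647 (SD, n = 4) for cyclic UF. It was 689 ± 326 CPM (SD, n = 5) in YS fluid and 202 ± 77.7 CPM (SD, n = 5) in the embryo. Endometrium and UF overlapped in this sum in the cyclic mares, but every pregnant endometrium (at least 3676 CPM) was above every pregnant UF (at most 3625 CPM). The sum is led by eca-miR-155, whose ranges overlapped between these groups, and 31.5% of 359 single miRNAs did not overlap there. In this sum every embryo (at most 312 CPM) and every YS fluid (at most 1149 CPM) was below every maternal library (at least 1607 CPM). This was not particular to these miRNAs. Red blood cell (miR-144, miR-451, miR-486), endothelial (miR-126) and stromal (miR-143, miR-145) miRNAs summed to at most 314, 346 and 459 CPM in embryos. In YS fluid they reached at most 1379, 460 and 3906 CPM, and in pregnant endometrium at least 2674, 1598 and 6708 CPM.

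**Figure D1:**
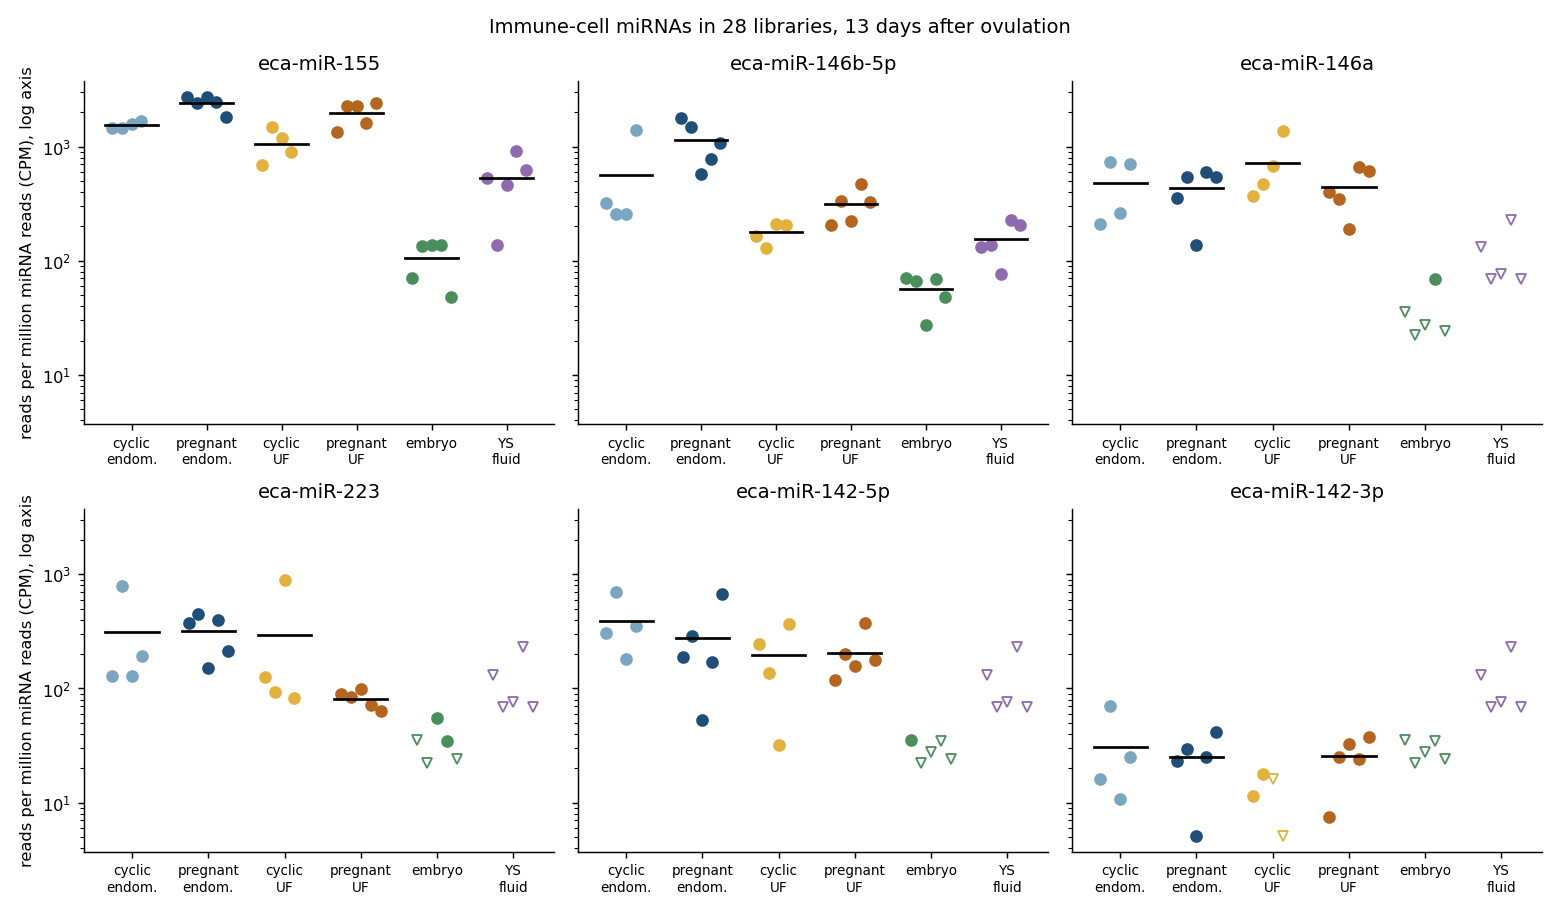
Level of 6 immune-cell miRNAs in each of 28 libraries, in CPM on a log axis, by sample group. Filled points are libraries with at least 1 read, open triangles are libraries with 0 reads drawn at the CPM of 1 read, and lines are group means where every library had a read. The embryo points of eca-miR-155 lie below all maternal points, its YS fluid points reach into the range of cyclic UF, and all YS fluids were at 0 reads for eca-miR-146a, eca-miR-223 and both arms of eca-miR-142.

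The first question of the design was which miRNAs differ between pregnant and cyclic endometrium. eca-miR-146b-5p was higher in pregnant endometrium and eca-miR-155 was higher by slightly less than the 2-fold threshold, whereas eca-miR-146a, eca-miR-223 and both arms of eca-miR-142 did not pass the test. 1 of 7 immune-cell miRNAs was called. A call required a Benjamini-Hochberg FDR, adjusted over all miRNAs tested, not above 0.05 and a change of 2-fold or more. In this comparison 3.37% of the 386 miRNAs tested were called, and 2 of 267 when only known miRNAs were fitted. The 386 and the shares below include predicted miRNAs, whose number the study considered likely to be too high because of duplicates. The median log2 fold change was 0.62 over the 7 immune-cell miRNAs and 0.08 over all tested miRNAs. In bulk samples such as these, fewer cells of a type and less RNA per cell cannot be told apart.

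eca-miR-155, the miRNA of activated lymphocytes and macrophages, was at 1472, 1458, 1593 and 1681 CPM in the cyclic endometrium of mares 1 to 4 and at 2747, 2403, 2745 and 2442 CPM in their pregnant endometrium. The pregnant biopsy of mare 5 held 1820 CPM. The cyclic libraries lay within a narrow band and all were below all pregnant ones, a separation seen in 1.3% of the tested miRNAs. It was higher in pregnancy in 4 of 4 mares, as were 8.55% of the tested miRNAs, by 1.87-fold, 1.65-fold, 1.72-fold and 1.45-fold in mares 1 to 4. The edgeR quasi-likelihood fit with the mare as block, in which mare 5 does not enter the contrast, put the log2 fold change at 0.97 (standard error, SE, 0.26) with an FDR of 0.00523. That FDR is past the threshold, which 3.89% of the tested miRNAs passed whatever their fold, but the fitted 1.96-fold change is not. Scaled by library totals alone, the log2 fold change was 0.73 with an FDR of 0.114.

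eca-miR-146b-5p was at 323, 259, 256 and 1405 CPM in cyclic endometrium and at 1770, 1491, 579 and 778 CPM in pregnant endometrium of mares 1 to 4. The pregnant biopsy of mare 5 held 1083 CPM of it. The groups overlapped because of the cyclic biopsy of mare 4, which held 391 reads of this miRNA and exceeded 3 of the 5 pregnant biopsies. The level was 5.47-fold, 5.76-fold and 2.27-fold higher in pregnancy in mares 1 to 3 and 0.554-fold in mare 4. The log2 fold change was 1.57 (SE 0.33, edgeR FDR 8.09e-05), higher in 3 of 4 mares, and without mare 4 it was 2.27 with an FDR of 5.80e-07. Without mare 2 it was 1.04 with an FDR of 0.186, and without the mare as block it was 1.22 with an FDR of 0.31, a fit in which 0 of 386 miRNAs were called. The call was also lost with scaling by library totals (1.32, FDR 0.0522) and with a stricter filter on low counts, edgeR's filterByExpr (1.54, FDR 0.121).

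eca-miR-146a, its close relative, was at 210.2, 734, 264 and 711 CPM in cyclic endometrium and at 352, 539, 139 and 603 CPM in the same mares when pregnant, with 538 CPM in mare 5. These groups lay over the same range. Its log2 fold change was -0.05 (SE 0.33, edgeR FDR 0.977), with a 95% interval from the SE of -0.69 to 0.60. The mature miR-146a and miR-146b-5p share their seed and differ in a few bases near the 3′ end, and how reads that match both were counted is not given in the sources used here. With the reads of both summed, the log2 fold change was 0.68 with an FDR of 0.264.

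eca-miR-142-5p, the more abundant arm of the blood-cell hairpin, was at 307, 704, 180.3 and 356 CPM in cyclic and at 189, 290.0, 52.5 and 171 CPM in pregnant endometrium of mares 1 to 4. It was thus lower in pregnancy in 4 of 4 mares, as were 6.48% of the tested miRNAs, with ratios of 0.615, 0.412, 0.291 and 0.482. The pregnant biopsy of mare 5, which has no cyclic partner, held 674 CPM, more than any other pregnant library. The log2 fold change over the paired mares was -0.98 (SE 0.35, edgeR FDR 0.119), and without the block, where mare 5 counts, it was -0.19 with an FDR of 0.917. Scaled by library totals it was -1.21 with an FDR of 0.0392, and in DESeq2 it was -1.05 with an FDR of 0.0356, while with RLE size factors in edgeR it was -1.04 with an FDR of 0.0667. Without mare 1 it was -1.23 with an FDR of 0.0233. The other arm, eca-miR-142-3p, had 33 reads in the 4 cyclic and 40 in the 5 pregnant biopsies and a log2 fold change of -0.35 (SE 0.65, edgeR FDR 0.915).

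eca-miR-223, the neutrophil-rich miRNA, was at 129, 794, 129 and 194 CPM in cyclic and at 378, 447, 152 and 396 CPM in pregnant endometrium of mares 1 to 4, and at 212 CPM in mare 5. It was higher in pregnancy in 3 of 4 mares and lower in mare 2, whose cyclic library was far above the other cyclic ones. Its log2 fold change was 0.62 (SE 0.36, edgeR FDR 0.407). eca-miR-146b-3p, the rarely kept arm of miR-146b, was represented by 10 reads in pregnant and 2 in cyclic endometrium, too few for a comparison.

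**Figure D2:**
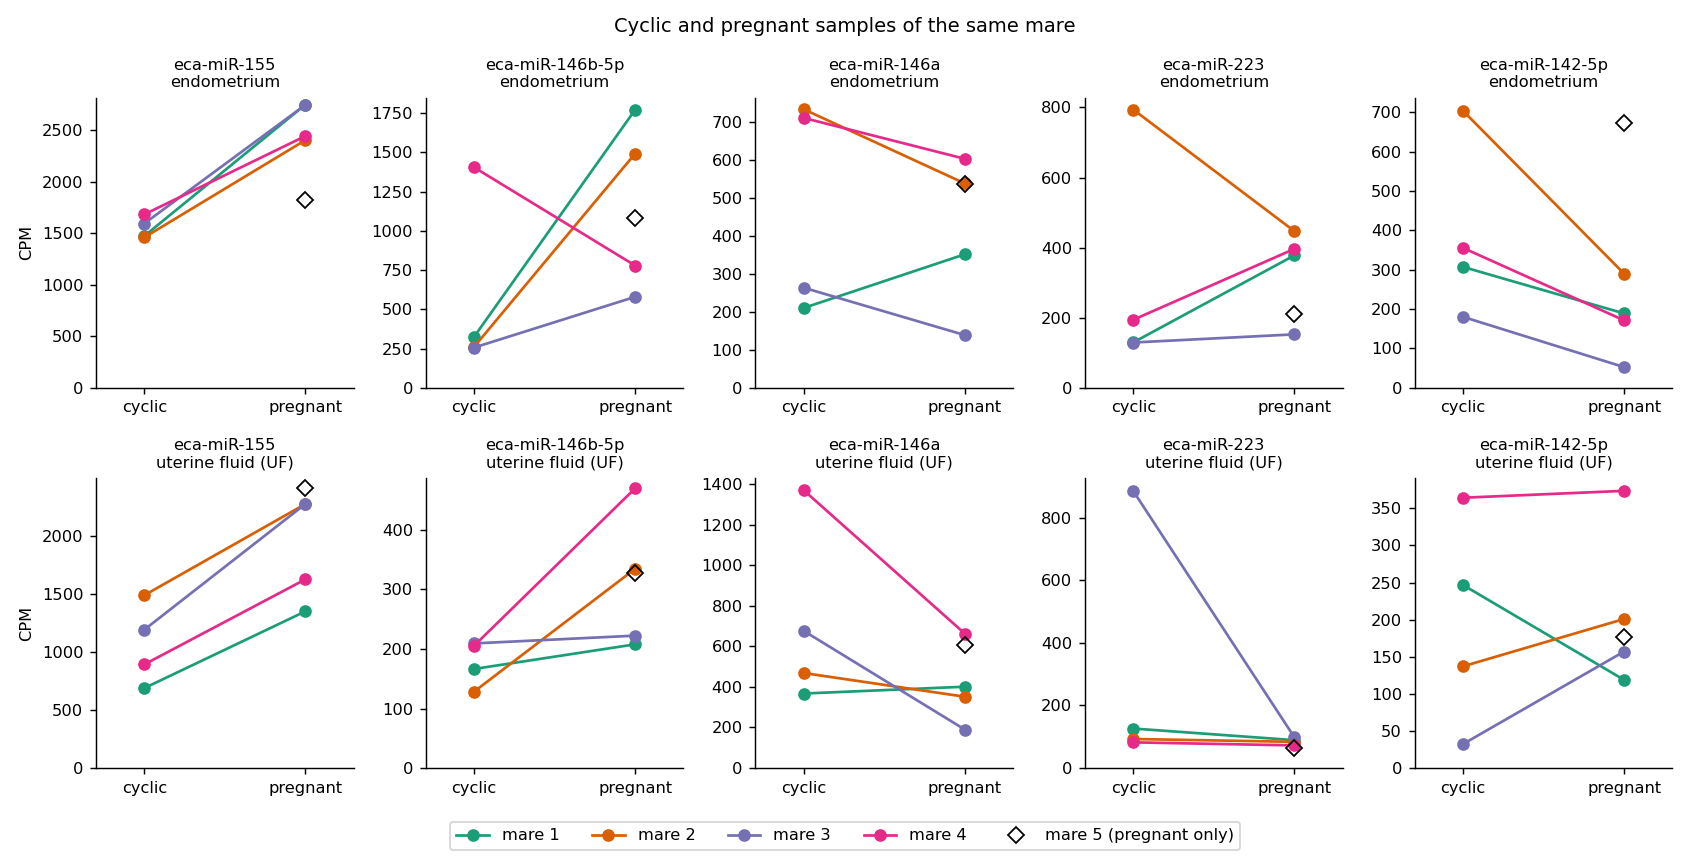
CPM of 5 immune-cell miRNAs in the cyclic and pregnant sample of each mare, endometrium above and UF below. Lines join the samples of a mare and the open diamond is the pregnant sample of mare 5. The lines of eca-miR-155 rise in 4 of 4 mares in both compartments, and those of eca-miR-146b-5p in 3 of 4 in the endometrium and 4 of 4 in UF.

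Other miRNAs linked to immune cells were set beside these results. None of 5 other leukocyte miRNAs (miR-150, miR-181a, miR-181b and both arms of miR-342) was called between pregnant and cyclic endometrium, and their median log2 fold change was -0.04. The most abundant of them, eca-miR-181a, a regulator of lymphocyte receptor signalling, had a log2 fold change of -0.12 (SE 0.22, edgeR FDR 0.915). Of 5 other miRNAs known to follow Toll-like receptor or NF-kB signalling, eca-miR-147b had 0 reads and 4 were tested, with a median log2 fold change of 1.20. The list was picked with earlier results of these data known, so its median is a description only. Among these, eca-miR-9a was called higher in pregnancy, with a log2 fold change of 1.23 (SE 0.30, FDR 0.000946). Its mean was highest in the embryo, at 11537 CPM against 1515 CPM in pregnant endometrium. eca-miR-21, the most abundant of that list at a mean of 109609 CPM over all libraries, was at 0.65 (SE 0.14, FDR 8.09e-05), below the fold threshold. eca-miR-132 was at 1.16 with an FDR of 0.223, and eca-miR-187 had 15 reads in all libraries. None of the 4 red blood cell miRNAs, led by eca-miR-486-5p, and none of the miRNAs of endothelium, stroma or epithelium was called in this comparison, in which calls were rare among all tested miRNAs too (3.37%). The study itself listed eca-miR-486-5p and eca-miR-132 as higher and eca-miR-144 as lower in pregnant endometrium. It did not list eca-miR-146b-5p or eca-miR-9a. In the fit used here eca-miR-486-5p was at 0.17 (FDR 0.826) and eca-miR-144 at -1.34 (FDR 0.223). Why the calls differ was not tested.

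In UF the same comparison called none of the 6 immune-cell miRNAs tested, where 4.92% of 305 miRNAs were called (3 of 220 with known miRNAs only). None of the 6 had groups that did not overlap, as 0.984% of the 305 did. 1 of the 6 had an unadjusted p under 0.05 in edgeR and DESeq2 also called 0. Their median log2 fold change was 0.60, beside 0.00 over all tested miRNAs. eca-miR-155 was at 689, 1489, 1192 and 893 CPM in cyclic UF and at 1351, 2276, 2277 and 1627 CPM in pregnant UF of mares 1 to 4, with 2412 CPM in mare 5. The groups overlapped at the cyclic fluid of mare 2, but within each mare the pregnant fluid was higher, by 1.96-fold, 1.53-fold, 1.91-fold and 1.82-fold. A rise in 4 of 4 mares was seen in 7.87% of the tested miRNAs. The log2 fold change was 0.92 (SE 0.39, edgeR FDR 0.258), with a 95% interval of 0.15 to 1.70, so UF and endometrium gave point estimates of like size but only the endometrium passed the FDR.

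eca-miR-146b-5p in UF was at 166, 128, 209 and 205 CPM in cyclic and at 208, 335, 222 and 470.0 CPM in pregnant mares 1 to 4, and at 328 CPM in mare 5. It was higher in 4 of 4 mares, and the fit gave 0.85 on the log2 scale (SE 0.52, edgeR FDR 0.505). eca-miR-146a was at 367.2, 468, 676 and 1370 CPM in cyclic and at 401, 351, 190 and 663 CPM in pregnant UF of the same mares, with 606 CPM in mare 5, and its log2 fold change was -0.69 (SE 0.47, edgeR FDR 0.607). The 2 relatives thus had estimates of opposite sign in UF, and neither passed the test.

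eca-miR-223 was at 126.2, 92.8, 886 and 82.1 CPM in cyclic UF and at 89.1, 83.7, 98.1 and 72.3 CPM in pregnant UF of mares 1 to 4, with 63.2 CPM in mare 5. It was lower in 4 of 4 mares, as were 10.2% of the tested miRNAs, but the change was between 0.706-fold and 0.902-fold in mares 1, 2 and 4 and 0.111-fold in mare 3. The log2 fold change of -0.94 (SE 0.60, edgeR FDR 0.552) moved to -0.16 without mare 3, whose cyclic fluid had the lowest depth of the cyclic fluids with 62087 reads. eca-miR-142-5p was at 247, 137, 32.2 and 364 CPM in cyclic and at 119, 201, 157 and 374 CPM in pregnant UF, with 177 CPM in mare 5. It had a log2 fold change of 0.36 (SE 0.55, edgeR FDR 0.929), and the 32.2 CPM of mare 3 were 2 reads.

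Whether pregnancy moved these miRNAs to a different extent in the 2 compartments was tested with an interaction term. None of the 7 immune-cell miRNAs was called, against 1.69% of 415 miRNAs (0 of 281 with known miRNAs only), and 2 had an unadjusted p under 0.05 in edgeR. These were eca-miR-223, with a difference of -1.78 in log2 fold change (SE 0.70, FDR 0.452), and eca-miR-142-5p, with 1.20 (SE 0.59, FDR 0.737). For eca-miR-223 the difference was -2.49 with an FDR of 0.0454 without mare 2 and -0.75 with an FDR of 1 without mare 3. eca-miR-155 had a difference of -0.16 (SE 0.42), with a 95% interval of -0.99 to 0.67.

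**Figure D3:**
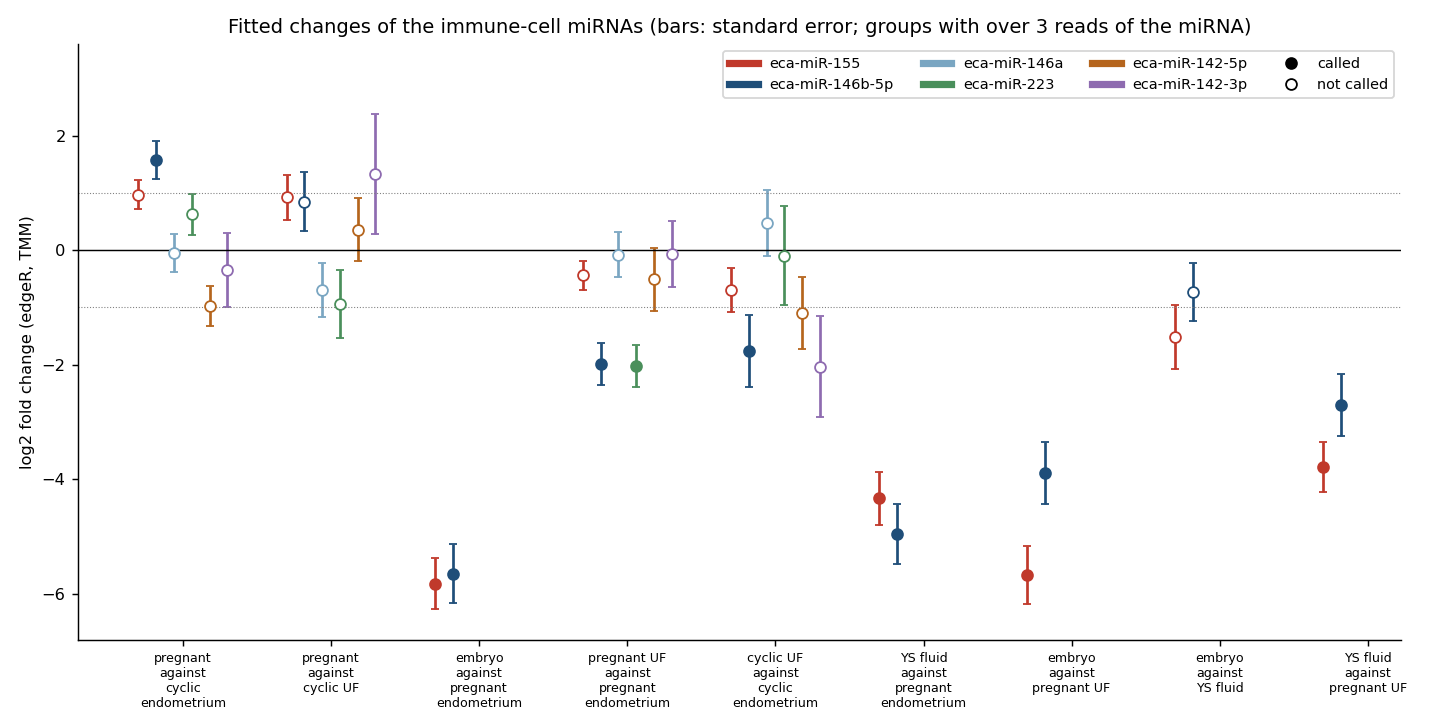
log2 fold change of 6 immune-cell miRNAs in 9 comparisons, from edgeR with TMM scaling, with bars for the standard error. Filled circles passed both thresholds, FDR 0.05 and 2-fold (dotted lines), open circles were not, and an miRNA with 3 or fewer reads in a group is left out. Called values are eca-miR-146b-5p between pregnant and cyclic endometrium and between either UF and its endometrium, eca-miR-223 between pregnant UF and endometrium, and both eca-miR-155 and eca-miR-146b-5p for embryo or YS fluid against endometrium or UF.

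UF was also compared with the endometrium of the same kind of cycle. In pregnancy, eca-miR-146b-5p and eca-miR-223 were lower in UF by about the same factor, while eca-miR-155, eca-miR-146a and both arms of eca-miR-142 did not pass the test. 2 of 7 immune-cell miRNAs were called, both lower, where 33.7% of 359 miRNAs were called, 20.1% lower, and both had groups that did not overlap, as did 31.5% of the tested miRNAs. A share of 2 in 7 is close to this background. The log2 fold change of eca-miR-146b-5p was -1.99 (SE 0.36, edgeR FDR 0.000682), from 579 to 1770 CPM in endometrium to 208 to 470.0 CPM in UF. That of eca-miR-223 was -2.02 (SE 0.37, edgeR FDR 0.000705), from 152 to 447 CPM in endometrium to 63.2 to 98.1 CPM in UF. Both were called in 16 of 16 alternative analyses.

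eca-miR-155 did not pass the test between these samples, with a log2 fold change of -0.44 (SE 0.25, edgeR FDR 0.184) and a 95% interval of -0.93 to 0.05. eca-miR-146a was at -0.08 (SE 0.39, FDR 0.915) and eca-miR-142-5p at -0.51 (SE 0.55, FDR 0.497). The median of the 7 was -0.51, beside -0.12 over all tested miRNAs. Markers of some other cell types also moved between these samples, while none of 5 epithelial miRNAs was called (median log2 fold change 0.11). Both arms of the endothelial miR-126 were called lower in pregnant UF, with a summed median of 142.3 CPM (7.42 to 316) against 2385 CPM (1598 to 4816) in endometrium. Of 4 red blood cell miRNAs, 3 were called lower, from 2674 to 11285 CPM in sum in endometrium to 519 to 3246 CPM in UF. Of 2 stromal miRNAs, 1 was called lower, from 6708 to 34349 CPM in sum to 186 to 3069 CPM. None of 5 other leukocyte miRNAs was called, and their sum was 9500.2 to 19652 CPM in UF and 5530.0 to 10651 CPM in endometrium. The part of these cells in the lower eca-miR-146b-5p and eca-miR-223 was not tested.

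Between cyclic UF and cyclic endometrium, 1 of 6 immune-cell miRNAs tested was called, where 30.8% of 328 miRNAs were called. eca-miR-146b-5p was lower in UF, at 128 to 209 CPM against 256 to 1405 CPM, with a log2 fold change of -1.76 (SE 0.63, edgeR FDR 0.0447). The groups did not overlap, as in 27.4% of the tested miRNAs. This call was kept in 6 of 15 alternative analyses. It was lost with the mare as block (-1.39, FDR 0.107) and without the endometrium and UF of mare 4 (-0.83, FDR 0.496). eca-miR-223 showed no such decrease, with a log2 fold change of -0.10 (SE 0.87, FDR 0.948), yet without mare 3, whose cyclic UF held 886 CPM, it was -2.10 with an FDR of 0.0233. The median of the 6 tested was -0.89, beside -0.24 over all.

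The read ratio of eca-miR-146b-5p to eca-miR-146a within a library does not depend on how libraries are scaled. It was 1.52, 0.354, 0.970 and 1.97 in the cyclic endometrium of mares 1 to 4 and 5.02, 2.76, 4.15, 1.29 and 2.01 in the pregnant endometrium of mares 1 to 5, after adding 0.5 reads to each count. In UF it was 0.457, 0.277, 0.318 and 0.151 in cyclic and 0.523, 0.953, 1.17, 0.712 and 0.546 in pregnant mares. eca-miR-146b-5p was therefore the more abundant of the pair in all pregnant biopsies, and eca-miR-146a in all cyclic fluids and in 4 of 5 pregnant ones.

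In pregnancy the log2 ratio was -0.43 ± 0.50 (SD, n = 5) in UF and 1.44 ± 0.79 (SD, n = 5) in endometrium. This difference of -1.87 had a two-sided exact permutation p of 0.00794, the smallest that 5 against 5 samples can give. The adjusted p was 0.0317 over 4 tests of tissue against fluid. These 4 tests took the libraries as independent, although UF and endometrium of a mare came from the same cycle. No paired test of tissue against fluid was run for the ratios. In cyclic mares the difference of -1.85 was of the same size, but the groups overlapped and the exact permutation p was 0.0571 (adjusted p = 0.114, smallest possible p 0.0286). Between pregnant and cyclic samples of a mare, the log2 ratio was higher in pregnancy by 1.54 in endometrium, in 3 of 4 mares (exact sign-flip permutation p = 0.25), and by 1.52 in UF, in 4 of 4 mares (exact sign-flip permutation p = 0.125, the smallest that 4 pairs can give). The ratios of pregnant and cyclic UF did not overlap.

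The 2 arms of the miR-142 hairpin kept a ratio in favour of the 5p arm in every library with at least 10 reads of both together. The mean log2 ratio of eca-miR-142-5p to eca-miR-142-3p was 3.66 ± 0.25 (SD, n = 4) in cyclic and 3.20 ± 0.47 (SD, n = 5) in pregnant endometrium. In pregnant UF this mean was 2.83 ± 0.73 (SD, n = 5) and that of cyclic UF 4.70 ± 2.23 (SD, n = 3), while the cyclic fluid of mare 4 held 71 reads of the 5p and 0 of the 3p arm. Pregnant UF and pregnant endometrium differed by -0.37 (exact permutation p = 0.357, adjusted p = 0.476), and cyclic UF and endometrium by 1.04 (exact permutation p = 0.629). Within mares the ratio was lower in the pregnant endometrium in 4 of 4, by 0.65 on average (exact sign-flip permutation p = 0.125, the smallest possible).

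**Figure D4:**
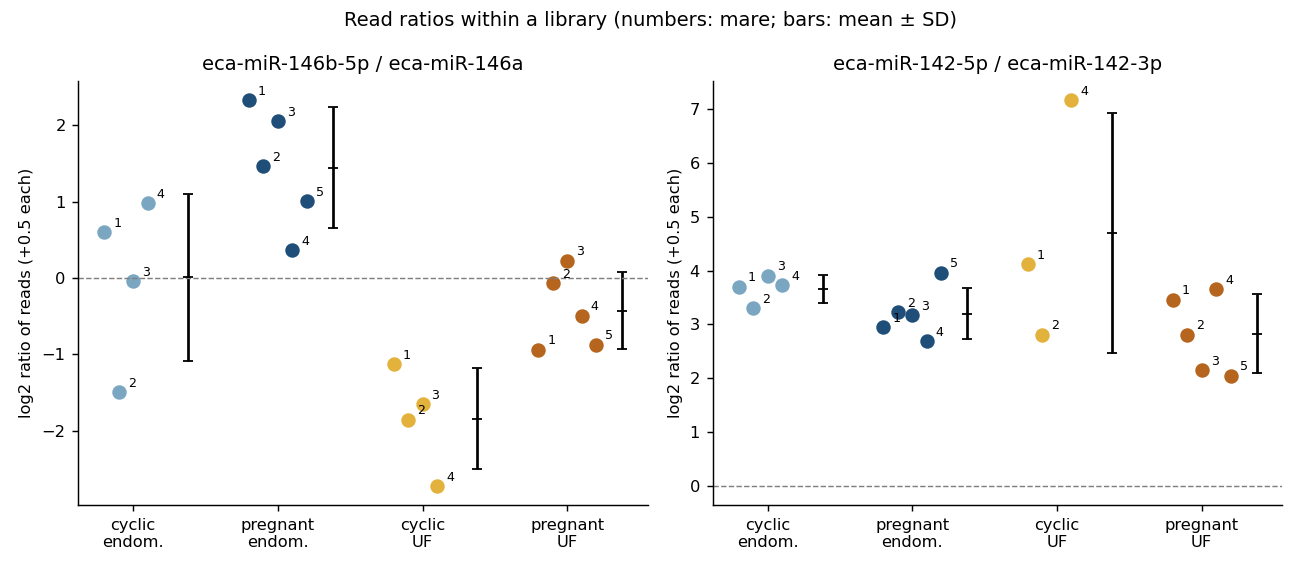
log2 ratio of reads within each library of endometrium and UF, for eca-miR-146b-5p over eca-miR-146a on the left and for the 2 arms of eca-miR-142 on the right, with 0.5 reads added to each count. Points are libraries numbered by mare and bars show the mean ± SD of the group. On the left, the pregnant UF points (at most 0.23) lie below the pregnant endometrium points (at least 0.37).

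The embryo held few reads of these miRNAs. In 179448 reads over the 5 embryos, 35 were from the 7 immune-cell miRNAs, 19 of them from eca-miR-155 and 10 from eca-miR-146b-5p. eca-miR-155 was at 70.9, 134, 138, 139 and 48.3 CPM in embryos 1 to 5 and eca-miR-146b-5p at 70.9, 67.0, 27.6, 69.3 and 48.3 CPM, both from 1 to 6 reads a library. Only 1 embryo had a read of eca-miR-142-5p, 1 had reads of eca-miR-146a and 2 had reads of eca-miR-223, and no embryo had a read of eca-miR-142-3p or eca-miR-146b-3p.

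Only eca-miR-155 and eca-miR-146b-5p had a read in every embryo. Both were called lower than in pregnant endometrium, and neither overlapped between the groups. The other members tested had 0 to 3 reads in the embryos and entered the fit only through the endometrium, so their calls and overlaps are not counted. All calls in this comparison made up 71.3% of 359 miRNAs, 42.6% were called lower, and 56.8% did not overlap. The log2 fold change was -5.83 (SE 0.44, edgeR FDR 5.10e-07) for eca-miR-155 and -5.65 (SE 0.52, edgeR FDR 2.30e-06) for eca-miR-146b-5p. The median over all tested miRNAs was -1.02 in this fit, 0.30 with scaling by library totals and -0.56 with RLE size factors, so that the share of lower calls moves with the scaling (153 lower and 103 higher here, 94 lower and 140 higher by library totals). eca-miR-155 stayed at -4.51 and eca-miR-146b-5p at -4.33 by library totals, both called. For the miRNAs with 1 to 3 reads in the embryos, the ratio of pooled CPM of endometrium to embryo was 42.5 for eca-miR-142-5p (exact binomial 95% interval 7.59 to 1683), 34.6 for eca-miR-146a (9.53 to 286) and 17.6 for eca-miR-223 (6.01 to 85.8). eca-miR-142-3p had 0 reads in the embryos, which allows a pooled level of up to 16.7 CPM, beside 21.7 CPM in endometrium. These intervals cover counting error only.

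YS fluid was read less deeply than any other sample, with 53989 reads over 5 libraries, of which 33 were from the immune-cell miRNAs. eca-miR-155 was at 527, 138, 459, 919 and 619 CPM in YS fluids 1 to 5, from 2 to 9 reads each, and eca-miR-146b-5p at 131.8, 138, 76.5, 229.8 and 206 CPM, from 1 to 3 reads each. eca-miR-146a, eca-miR-223 and both arms of eca-miR-142 had 0 reads in 5 of 5 YS fluids, which allows a pooled level of up to 55.6 CPM (3 reads over the group). At this depth eca-miR-142-3p, at 21.7 CPM in pooled pregnant endometrium, would not have been detectable.

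Against pregnant endometrium, eca-miR-155 and eca-miR-146b-5p, the members read in all YS fluids, were called lower in YS fluid without overlap, where 53.1% of 341 miRNAs were called, 35.2% lower, and 43.1% had groups that did not overlap. The 4 members with 0 reads in YS fluid entered the fit only through the endometrium, so their calls are not counted, and that of eca-miR-142-3p was kept in 9 of 15 alternative analyses. eca-miR-155 was lower by a log2 fold change of -4.34 (SE 0.47, edgeR FDR 1.82e-06) and eca-miR-146b-5p by -4.96 (SE 0.53, edgeR FDR 1.54e-06). In pooled reads, eca-miR-146a was at least 6.93-fold higher in endometrium, eca-miR-223 at least 5.31-fold and eca-miR-142-5p at least 4.26-fold, and eca-miR-142-3p was under the floor. These pooled bounds leave out the spread between mares. The pregnant endometrium of mare 3 held 52.5 CPM of eca-miR-142-5p, under the YS fluid floor of 55.6 CPM. The median over all tested miRNAs moved from -0.84 to 1.16 when libraries were scaled by their totals, which turned the split of calls from 61 higher and 120 lower to 119 higher and 59 lower, and with RLE size factors it was 78 higher and 87 lower. By library totals eca-miR-155 was at -2.30 and eca-miR-146b-5p at -2.93, still called.

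Both embryonic samples were also set beside pregnant UF, with which the conceptus is in contact. In the embryo, eca-miR-155 and eca-miR-146b-5p were called lower than in UF without overlap, where 68.4% of 310 miRNAs were called, 38.7% lower, and 51.6% did not overlap. The members with 0 to 3 embryo reads entered this fit only through UF and are again not counted. eca-miR-155 had a log2 fold change of -5.67 (SE 0.51, edgeR FDR 1.51e-06) and eca-miR-146b-5p of -3.89 (SE 0.55, edgeR FDR 7.58e-05). In pooled CPM, UF held 35.9 times as much eca-miR-146a (9.84 to 299), 34.4 times as much eca-miR-142-5p (6.04 to 1369) and 5.04 times as much eca-miR-223 (1.63 to 25.3). Over all tested miRNAs the split was 92 higher and 120 lower, against 85 lower of 231 calls by library totals and 116 higher and 100 lower with RLE size factors, and both named miRNAs stayed called lower under these.

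In YS fluid, eca-miR-155 and eca-miR-146b-5p were both called lower than in pregnant UF, and eca-miR-155 did not overlap, where 59.2% of 277 miRNAs were called, 35.7% lower, and 46.6% did not overlap. The highest YS fluid of eca-miR-146b-5p, at 229.8 CPM, lay within the UF range. eca-miR-155 had a log2 fold change of -3.78 (SE 0.44, edgeR FDR 2.62e-06) and eca-miR-146b-5p of -2.71 (SE 0.54, edgeR FDR 0.000572). By library totals eca-miR-146b-5p was at -1.05 with an FDR of 0.108, no longer called, and the split of all calls went from 65 higher and 99 lower to 114 higher and 53 lower, with 87 higher and 78 lower under RLE size factors. In pooled reads, which leave out the spread between mares, eca-miR-146a was at least 7.21-fold and eca-miR-142-5p at least 3.45-fold higher in UF. By the same measure eca-miR-223 was at least 1.52-fold higher, and eca-miR-142-3p was under the floor. These comparisons with endometrium and UF share the embryo and YS fluid libraries.

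Between embryo and YS fluid only eca-miR-155 and eca-miR-146b-5p could be tested, and neither was called, where 35.1% of 259 miRNAs were called. eca-miR-155 was at a log2 fold change of -1.52 (SE 0.57, edgeR FDR 0.0509), just outside the threshold, and was called in 7 of 15 alternative analyses. eca-miR-146b-5p was at -0.73 (SE 0.51, edgeR FDR 0.338). The YS fluid values of eca-miR-146b-5p were all above the embryo values, as in 17.4% of the tested miRNAs, although both rest on 1 to 3 reads a library. The median over all tested miRNAs was 0.28 here and -0.32 by library totals, with 57 higher and 34 lower calls against 40 higher and 55 lower.

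The order of groups by mean level differed between the miRNAs. eca-miR-155 went from pregnant endometrium (2431 CPM) over pregnant UF (1989), cyclic endometrium (1551), cyclic UF (1066) and YS fluid (533) to the embryo (106), with overlapping ranges between each pair of neighbours. eca-miR-146b-5p went from pregnant endometrium (1140 CPM) over cyclic endometrium (561), pregnant UF (313), cyclic UF (177) and YS fluid (157) to the embryo (56.6), and only the last pair of neighbours did not overlap. The tissue came before the fluid for this miRNA, while eca-miR-155 was ordered by pregnancy before tissue. eca-miR-146a was highest in cyclic UF (721 CPM), followed by cyclic endometrium (480), pregnant UF (442) and pregnant endometrium (434), and then, without overlap, the embryo (13.9). eca-miR-223 had nearly equal means in pregnant endometrium (317 CPM), cyclic endometrium (312) and cyclic UF (297), then pregnant UF (81.3), and was again separate from the embryo (18.0). eca-miR-142-5p went from cyclic endometrium (387 CPM) over pregnant endometrium (275), pregnant UF (205) and cyclic UF (195) to the embryo (7.09). Within the maternal groups, no difference in these orders passed the test other than those called above.

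**Figure D5:**
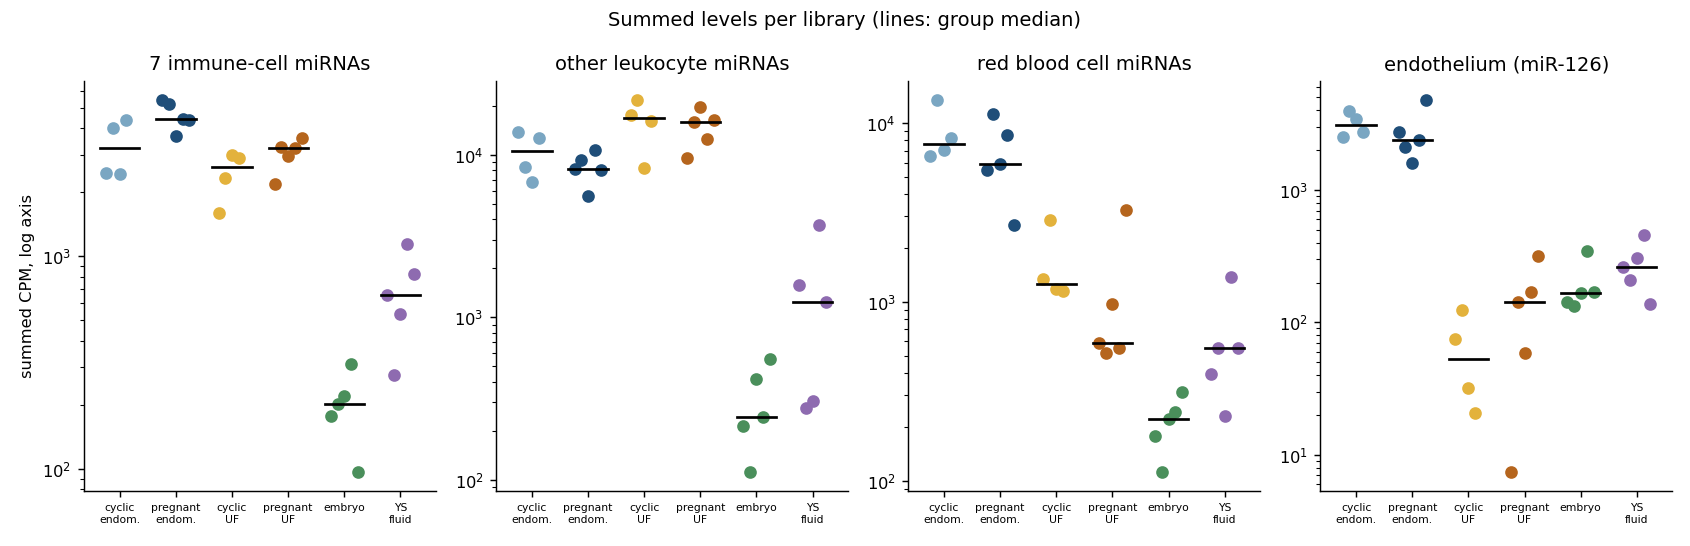
Summed CPM per library, on a log axis, of the 7 immune-cell miRNAs and of other leukocyte, red blood cell and endothelial (miR-126) miRNAs, with a line at the group median. The immune-cell and other leukocyte sums of endometrium and UF lie above those of embryo and YS fluid. Red blood cell and endothelial sums of endometrium also lie above those of embryo and YS fluid. The immune-cell sums of pregnant endometrium (at least 3676 CPM) lie just above those of pregnant UF (at most 3625 CPM), where 31.5% of single tested miRNAs did not overlap. The red blood cell and endothelial sums have medians of 586 CPM and 142.3 CPM in pregnant UF against 5877 CPM and 2385 CPM in pregnant endometrium.

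The levels were last compared across the 28 libraries, as a description only, since these libraries share groups, mares and differences in depth. By Pearson correlation of log2(CPM + 10), eca-miR-146a ran closest to eca-miR-142-5p (0.90) and eca-miR-223 (0.87), and less closely with its relative eca-miR-146b-5p (0.66), which was nearest to eca-miR-155 (0.80). Among 192 other known miRNAs with a mean of at least 100 CPM in a group, the 3 most like eca-miR-146a were eca-miR-150 (0.925), a miRNA of mature lymphocytes, eca-miR-31 (0.916) and eca-miR-27b (0.892). Those most like eca-miR-142-5p were eca-miR-31 (0.919), eca-miR-150 (0.900) and eca-miR-1468 (0.900). eca-miR-146b-5p was most like eca-miR-125b-5p (0.792), eca-miR-143 (0.772) and eca-miR-199a-3p (0.768), of which miR-143 and miR-199a are known from smooth muscle and fibroblasts. eca-miR-155 was most like eca-let-7g (0.945), eca-let-7f (0.928) and eca-let-7a (0.922), and eca-miR-223 was most like eca-let-7c (0.811), eca-let-7a (0.809) and eca-let-7f (0.805). The lists were redone with Spearman correlation and with log2(CPM + 100). Of these 10 lists, 5 kept most of their 3 miRNAs and 5 did not, so the named neighbours depend on the measure. eca-miR-150 itself was at a mean of 169 CPM in pregnant UF, 160.5 CPM in cyclic UF, 129 CPM in cyclic and 83.4 CPM in pregnant endometrium, with 0 reads in every embryo and YS fluid. The sum of the 5 other leukocyte miRNAs was 112 to 556 CPM in the embryos and 277 to 3676 CPM in YS fluid.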

How the data were processed

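miRNA was sequenced from 28 samples, and the values used are raw read counts per mature miRNA as deposited by the authors, without normalization. The authors trimmed adapters with cutadapt 1.11, removed reads under 17 bases or with a quality under 20, and used miRPro to count reads on known horse miRNAs of miRBase release 22 and to predict 154 further miRNAs on EquCab2.0. The precursor counts equalled those of the predicted miRNAs in 154 of 154 entries and were not used. How reads that match several miRNAs were assigned is not given in the sources used here, and mature sequences of the known miRNAs were not used here. The 7 miRNAs and all lists were chosen with earlier results of these data known.

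Each comparison was fitted on the libraries of its 2 groups, known and predicted miRNAs together, by the quasi-likelihood test of edgeR 4.0.16 (R 4.3.3) after TMM scaling. A miRNA entered the fit if it reached 1 CPM in a number of libraries equal to the size of the smaller group. Calls needed a Benjamini-Hochberg FDR not above 0.05 and a 2-fold change, as in the study's methods. Pregnant and cyclic samples were compared with the mare as a block, since each mare was its own control. Comparisons between tissues and fluids were fitted without it. The deviations of samples of 1 mare from their group means correlated by 0.185 on average (lowest -0.136) in endometrium and by 0.249 (lowest 0.0115) in UF, and those of different mares by -0.05 and -0.06, over 277 miRNAs. Replicates of a group are separate mares or embryos.

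Single CPM values use library totals without TMM. A group floor is 3 reads over the group, and intervals and floors cover counting error only. Read ratios were used in libraries with at least 10 reads of both miRNAs, which left no test for embryo or YS fluid, so that the adjusted p covers 4 tests. These tests of tissue against fluid did not use the pairing by mare. Named are the 7 miRNAs, the 3 most like each abundant one, and of each list the most abundant miRNA and those called in pregnant against cyclic samples. eca-miR-132, eca-miR-144, eca-miR-147b, eca-miR-150 and eca-miR-187 were also given values outside this rule after their values were seen. Alternatives were the likelihood ratio test, DESeq2 1.42.0, RLE size factors, library totals, filterByExpr (minimum count 10), no filter, the fit with or without the block, a single fit of 28 libraries, known miRNAs only, identical predicted miRNAs counted once, eca-miR-146a and eca-miR-146b-5p summed, the FDR alone, and each replicate left out. The scripts were tested on simulated data, for the edgeR fits with changes that alternated between raised and lowered. For embryo against endometrium this setting replaced an earlier simulation with more changes, of random sign, which gave more false calls. It does not cover an unequal split of calls as in the embryo comparisons here, so it does not vouch for those calls. Other calculations used Python 3.11.15 with scipy 1.17.1.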

Additional observations from a re-analysis of the deposited data

Results flagged for a closer look

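In 42 groups of 4 or 5 libraries, 7 had a library whose distance from its nearest neighbour took up more of the group's range than Dixon's 95% critical value allows. Chance alone does this in about 1 in 20 groups, and groups at or near 0 reads meet the rule with a single read. Of the 7, 4 rest on 1 or 2 reads. These are eca-miR-142-5p in embryo 1 (35.5 CPM, 1 read), eca-miR-146a in embryo 4 (69.3 CPM, 2 reads), eca-miR-146b-3p in the cyclic endometrium of mare 4 (7.18 CPM, 2 reads) and eca-miR-146b-3p in the cyclic UF of mare 3 (16.1 CPM, 1 read).

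The other 3 rest on more reads. eca-miR-146b-5p stood at 1405 CPM (391 reads) in the cyclic endometrium of mare 4, where the other cyclic biopsies had 256 to 323 CPM. eca-miR-223 stood at 794 CPM (239 reads) in the cyclic endometrium of mare 2, above 129 to 194 CPM in the others. eca-miR-223 also stood at 886 CPM (55 reads) in the cyclic UF of mare 3, above 82.1 to 126.2 CPM in the others. All 3 were cyclic samples, each of a different mare. None of the 7 miRNAs passed the test of whether pregnancy acted differently in UF than in endometrium.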

How the results depend on the processing

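Over at most 16 refits a comparison and the FDR alone, the 7 miRNAs gave 960 log2 fold changes. The FDR alone keeps the fitted value and can change only the call. Of these, 882 kept direction and side of the threshold, 27 lost the threshold, 15 gained it and 36 changed sign. The 960 include embryo and YS fluid fits of members with 0 to 3 reads there. Those members entered only through endometrium or UF, so their kept direction carries no weight. Of the sign changes, 33 were under 0.4 in size and none concerned a called value. The cause of the changes was not tested, apart from settings that by construction test fewer miRNAs or use fewer samples.

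Of the number of immune-cell miRNAs called between pregnant and cyclic endometrium (1), DESeq2 and the FDR alone gave 2, and filterByExpr, no mare block and 28 libraries in a single fit gave 0, with 0 to 2 when a mare was left out. Library totals gave 1, eca-miR-142-5p in place of eca-miR-146b-5p. Between cyclic UF and endometrium (1), DESeq2, RLE size factors, library totals, filterByExpr, the mare block and the summed miR-146 reads gave 0, and leaving out a mare 0 to 2. filterByExpr, which tests fewer miRNAs, gave 3 in place of 6 for embryo against UF and 2 in place of 6 for YS fluid against UF, numbers that include miRNAs with 0 to 3 reads in the embryonic samples. For embryo against YS fluid (0), the likelihood ratio test, DESeq2, RLE size factors, library totals, 28 libraries and known miRNAs only gave 1, with 0 to 1 without a mare. The interaction (0) gave 0 to 1 without a mare. The block made no other large change in a number of calls. Smaller changes are left out of these counts. In YS fluid against endometrium, eca-miR-142-3p lost its call with RLE size factors (FDR 0.0662) and library totals (FDR 0.196). In YS fluid against UF, eca-miR-142-3p (FDR 0.151) and eca-miR-146b-5p (FDR 0.108) lost theirs by library totals.

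The sign changes were as follows. eca-miR-146a between pregnant and cyclic endometrium was at 0.068 without the block and 0.035 over 28 libraries. In pregnant against cyclic UF, eca-miR-146b-5p with miR-146a reads added was at -0.36, and eca-miR-142-5p ranged from -0.0048 to 0.82 without a mare. In pregnant UF against endometrium, eca-miR-142-3p was at 0.037 by library totals, 0.055 with the block and 0.18 with known miRNAs only (-0.62 to 0.20 without a mare), and eca-miR-146a at 0.017, 0.049 and 0.14 by library totals, filterByExpr and known miRNAs only (-0.22 to 0.081 without a mare). There eca-miR-142-5p ranged from -1.01 to 0.22 without a mare.

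In cyclic UF against endometrium, eca-miR-223 was at 0.41 in DESeq2, 0.35 with RLE size factors, 0.12 with no filter, 0.29 with filterByExpr, 0.10 over 28 libraries, 0.14 with known miRNAs only, 0.11 with identical entries counted once and 0.14 with miR-146 summed, and ranged from -2.10 to 1.33 without a mare. In the interaction, eca-miR-155 was at 0.085 in DESeq2, 0.079 with RLE size factors, 0.11 by library totals, 0.0074 with known miRNAs only, 0.018 with identical entries counted once and 0.10 with miR-146 summed, and ranged from -0.070 to 0.19 without a mare. eca-miR-146b-5p ranged there from -1.51 to 0.038, and eca-miR-146b-3p from -2.41 to 1.23. The log2 ratio of the miR-142 arms between pregnant UF and endometrium ranged from -0.71 to 0.0097 without a mare. That of eca-miR-146b-5p to eca-miR-146a between pregnant and cyclic UF kept its sign, at 1.41 without the pairing. Its exact permutation p was then 0.0159, against a sign-flip p of 0.125 with the pairing. This unpaired comparison ignores the mare and was added after the data were seen.

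Depth limits the embryo and YS fluid values, since 1 YS read is worth at least 68.8 CPM.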
